A study of Mus musculus with 9 samples.

Results

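Histones are the proteins around which DNA is wound, and the genes described here are the replication-dependent ones, which supply the bulk of histone protein while DNA is copied. They were taken as every row of the gene table whose symbol begins with Hist1h, Hist2h, Hist3h or Hist4h, which gave 69 of 24493 genes. By class they were 6 linker H1 genes, 19 H2A, 19 H2B, 12 H3 and 13 H4 genes. By cluster, 55 carried a Hist1 symbol (chromosome 13), 10 a Hist2 symbol (chromosome 3), 3 a Hist3 symbol (chromosome 11) and 1 a Hist4 symbol (chromosome 6).

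The RNA came from cultured mouse pancreatic tumor cells (genetic background C57BL/6, medium DMEM + 10% FBS, no treatment), with 3 libraries in each of 3 groups. One group is the parental line. The others, escape e1 and escape e2, are derivatives of it that the series calls immunotherapy-resistant. The question the series names is how the resistant cells differ from their parent in gene expression. The labels do not say whether an escape line is 1 clone or a pool, nor how it was derived, nor whether the 3 libraries of a group were separate cultures, so p-values reflect no more than library-to-library spread. The unit is TPM, a transcript abundance scaled for gene length and to a fixed total per library. TPM holds no read counts, so sequencing depth is unknown and a value of 0 is described only as listed at 0.

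The summed TPM of 8 epithelial markers of ductal tumor cells ran from 8080 to 9350 in the parental libraries, from 1190 to 1230 in e1 and from 1720 to 1780 in e2. In the limma fit described below, 7 of the 8 were called lower and 1 higher in each escape line. Of all genes tested, 34.9% were called lower and 35.7% higher in e1, and 32.7% and 40.8% in e2. In e1 and e2 Epcam, an epithelial adhesion molecule, stood at means of 0.296 and 0.185 TPM, so this marker of the labelled cell type was near 0 in both escape lines. Fibroblast markers, 9 in number, summed to 0.68 to 0.994 TPM in parental libraries, 307 to 325 in e1 and 298 to 311 in e2, with Lum listed at 0 throughout. Leukocyte markers, 12 in number, summed to at most 2.11 TPM in any library, and Cd3e, Cd4, Nkg7 and Ncr1 were listed at 0 in all 9. The largest sum in any library was 17.4 TPM for acinar markers (e2), 0.218 for endocrine, 0.905 for endothelial, 1.39 for erythroid and 1.51 for testis germ-line markers. The part of these differences in the histone results was not tested. Pearson correlations of log2 values over genes were 0.987 to 0.995 within groups. Library 1 of e1 correlated with the other e1 libraries at 0.987 each, against 0.994 between those, and its histone sum was the lowest of the line, so results that turn on it are given without it.

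Replication-dependent histone mRNAs are made in large amounts in S phase. Unlike other mRNAs they usually end not in a poly(A) tail but just after a short stem-loop, which is bound by the stem-loop binding protein SLBP and cut with the help of the U7 small nuclear RNA. When DNA synthesis stops they are degraded quickly. Some of these genes also give polyadenylated RNAs from sites beyond the stem-loop, and such RNAs have been seen in cells that have left the cycle. How much of each form a library records depends on whether RNA was selected by its poly(A) tail, and the labels do not say which selection was used.

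The stem-loop was searched for in gene models of GENCODE M21 (GRCm38, the same assembly as the mm10 build named in the submitters' processing notes). The search took a stem of 6 perfectly paired bases that starts with GG around a loop of 4 bases that fits TNTN. It was present in 46 of 69 members and in 0.266% of all 141767 annotated transcripts. The most frequent spelling was shared by 26 members of classes H1, H2A, H2B and H3. Among H4 genes the stem mostly carried another base pair, and 7 H4 members shared 1 spelling. The loops of members whose levels are described below are shown 5′ to 3′ with the 16 bases of stem and loop in capitals, together with 2 H4 spellings for comparison.
Hist1h1c: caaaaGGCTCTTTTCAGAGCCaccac
Hist3h2a: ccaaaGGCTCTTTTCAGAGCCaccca
Hist2h2aa1: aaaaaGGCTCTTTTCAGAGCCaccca
Hist3h2ba: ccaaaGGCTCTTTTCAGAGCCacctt
Hist1h3g: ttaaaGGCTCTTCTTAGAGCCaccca
Hist1h4i: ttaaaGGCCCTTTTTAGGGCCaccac
Hist1h4a: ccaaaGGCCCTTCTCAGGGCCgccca
Hist1h4b: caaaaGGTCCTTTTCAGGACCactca
The Hist1h1c, Hist3h2a, Hist2h2aa1 and Hist3h2ba genes thus shared the same 16 bases, although their levels moved differently, as described below. The printed bases lie at chr13:23739507-23739532 for Hist1h1c, chr11:58955167-58955192 for Hist3h2a, chr3:96246027-96246052 for Hist2h2aa1 and chr11:58949344-58949369 for Hist3h2ba, all on the plus strand. Those of Hist1h4i lie on the minus strand at chr13:22040961-22040986. The spliced model of Hist1h2bc and the model of Hist2h2be held no such stem-loop. A missing match says only that these letters are not in the model.

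Most members were low in every library. Over the 9 libraries, 22 members had a mean under 1 TPM, 39 from 1 to 5, 3 from 5 to 10 and 5 at 10 or more. Those 5 were Hist1h2bc, Hist1h4i, Hist1h1c, Hist3h2a and Hist2h2aa1. Together they held 55.2 to 58.2% of the summed histone TPM in parental libraries, 69.6 to 71.4% in e1 and 71.1 to 73.7% in e2. At the other end, Hist1h2aa, Hist1h2ba, Hist2h3c1 and Hist3h2bb-ps were listed at 0 in all 9 libraries. The first and second of these are genes of the male germ line, and the testis linker histone Hist1h1t reached at most 0.377 TPM.

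The summed TPM of all 69 members was higher in both escape lines. It was 164, 141 and 149 in the parental libraries, 418, 541 and 527 in e1 and 556, 527 and 543 in e2. No escape library overlapped the parental ones, and e1 library 1 was the lowest of the 6 escape libraries. The means were 151 ± 11.4 in parental cells, 495 ± 67.3 in e1 and 542 ± 14.4 in e2 (SD, n = 3), that is 3.28 times and 3.58 times the parental mean. These are sums over members and carry no test. In bulk RNA, fewer cells of a type and less RNA per cell cannot be told apart.

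Every class had a higher sum in both escape lines, by different amounts. The H1 sum went from 12.6 ± 1.12 TPM in parental cells to 87.1 ± 17.4 in e1 and 111 ± 2.65 in e2. The H2A sum was 30.4 ± 1.51, 72.6 ± 14.3 and 114 ± 4.55 in the same order. For H2B it was 42.4 ± 6.68, 152 ± 17.0 and 190 ± 7.67, and for H3 10.7 ± 2.54, 37.1 ± 5.04 and 40.9 ± 0.90. Only for H4 was the e2 sum, 87.1 ± 4.07, below that of e1, 147 ± 13.7, with both above the parental 55.0 ± 4.24. Single genes set much of this. Without Hist1h2bc the other 18 H2B members summed to 29.7 ± 4.03, 37.0 ± 6.15 and 41.8 ± 1.56, ratios of 1.25 and 1.41 in place of 3.58 and 4.47. Without Hist1h1c the H1 ratios were 3.85 and 3.43 in place of 6.90 and 8.76. The 64 members outside the 5 highest summed to 65.5 ± 6.84, 146 ± 23.4 and 150 ± 6.45.

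**Figure D1:**
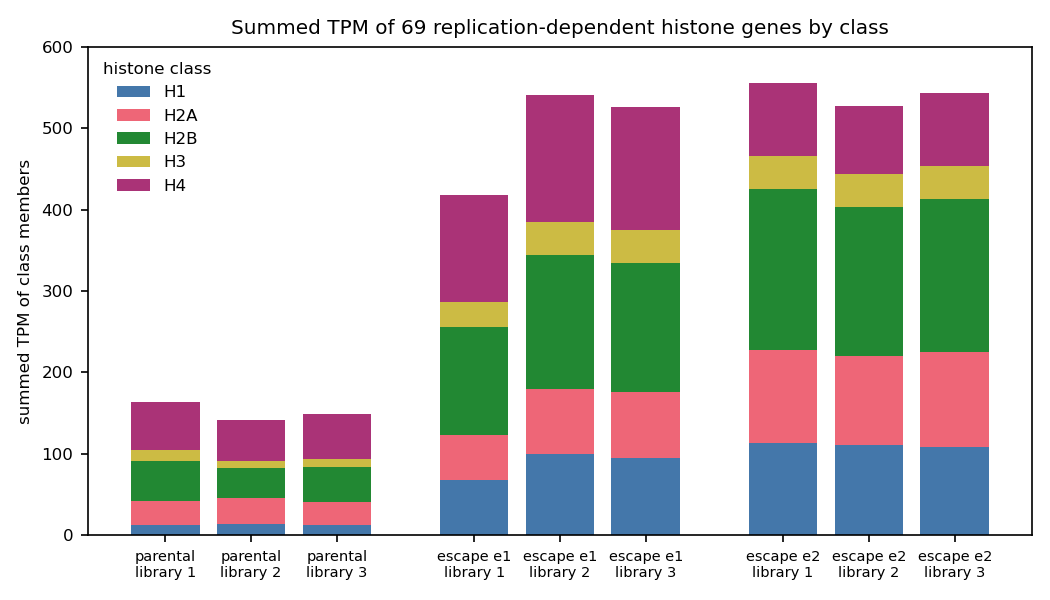
Summed TPM of the 69 histone genes in each of the 9 libraries (bars, linear axis from 0), stacked by class. The parental bars end between 141 and 164 and the escape bars between 418 and 556, and the H4 segment is larger in e1 than in e2.

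The comparison of e1 with parental cells was first read over all 69 members. In 34 of them every e1 library lay above every parental library, and in 2 every e1 library lay below. Over every gene of the table these shares were 21.4% and 23.1%, against 49.3% and 2.90% of members. A limma fit with no filter on low values, run over all 24493 genes, called 25 members higher and 1 lower (Benjamini-Hochberg adjusted p under 0.05), where 17.0% and 19.1% of all genes were called. The fit used for single genes kept genes that reached 1 TPM in 3 or more libraries. Under this filter 53 of 69 members were tested, and 37 were called higher, 2 lower and 14 neither. Of all 12769 genes tested, 35.7% were called higher and 34.9% lower. The filter favours a difference here, since only 17 of the 53 tested members reached 1 TPM in all 3 parental libraries. All others needed escape libraries to pass, among them 27 with a parental mean under 1 TPM. The counts over tested members are thus a description. Their median log2 fold change was 0.97, against 0.02 over all genes tested.

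The same reading for e2 against parental, which shares the parental libraries with the comparison above, gave 33 of 69 members with every e2 library above every parental one and 2 with every one below. The shares over every gene of the table were 28.6% and 22.5%. With no filter, limma called 26 members higher and 1 lower, against 22.0% and 17.5% of all genes. Among the 53 tested members 33 were called higher, 2 lower and 18 neither, beside 40.8% and 32.7% of all genes tested. Their median log2 fold change was 0.86, against 0.07 over all genes tested. Members called higher in both comparisons numbered 31. The share of all genes called higher in both is not given here, so this number is a description. By class, the members called higher in e1 were 5 of 5 tested for H1, 7 of 13 for H2A, 8 of 15 for H2B, 8 of 10 for H3 and 9 of 10 for H4. For e2 they were 4, 7, 7, 7 and 8 in the same order.

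Between the escape lines fewer members were called. Of 69 members, 8 lay higher in every e2 library than in every e1 library and 8 lower, where 28.2% and 18.5% of the table did so. With no filter limma called 4 higher and 4 lower, against 21.8% and 13.8% of all genes. Of the 53 tested, 7 were called higher in e2 and 7 lower, beside 40.6% and 29.7% of all genes tested. With median-ratio scaling of the libraries, and likewise in the authors' rlog values, the split was 4 higher and 7 lower. Without e1 library 1 or without e2 library 3, 4 were called higher, against 41.4% and 37.7% of all genes. The median log2 difference was -0.04, against 0.09 over all genes tested.

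**Figure D2:**
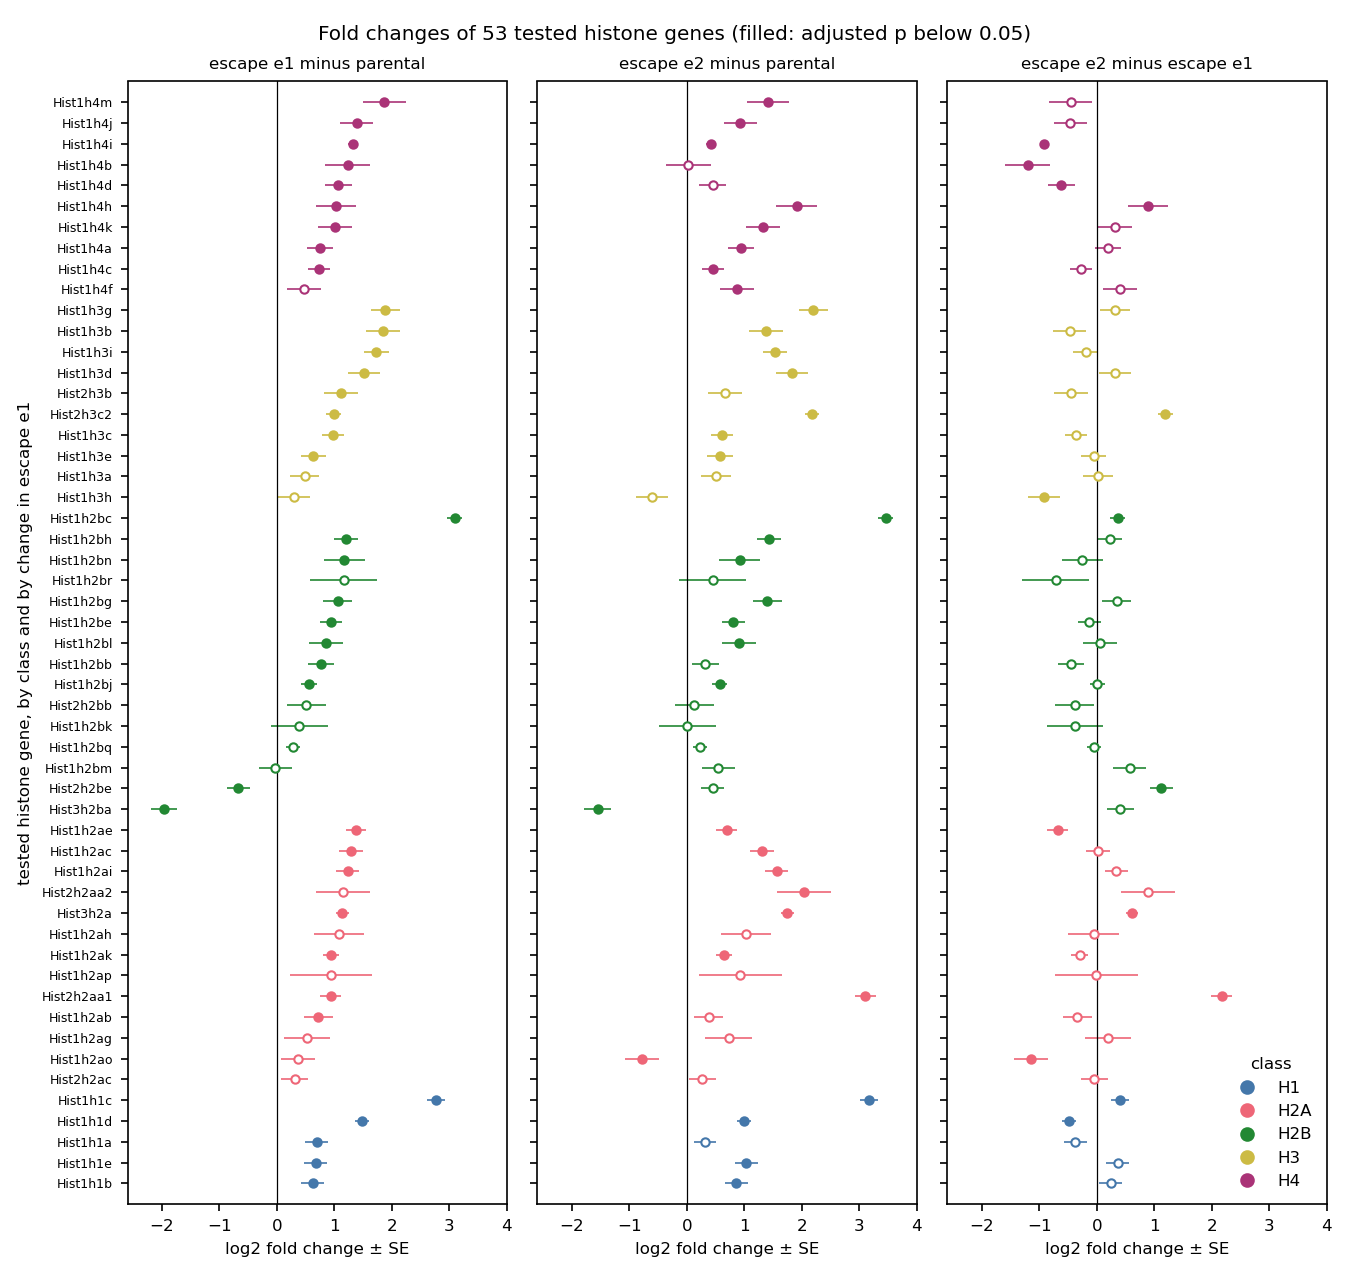
Log2 fold change ± SE (horizontal axis) of each of the 53 tested histone genes in the 3 comparisons, ordered by class, with filled points called at an adjusted p below 0.05. Most points lie right of 0 in the first and second panels, where Hist3h2ba lies left of 0, and in the third panel 7 filled points lie on each side.

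**Figure D3:**
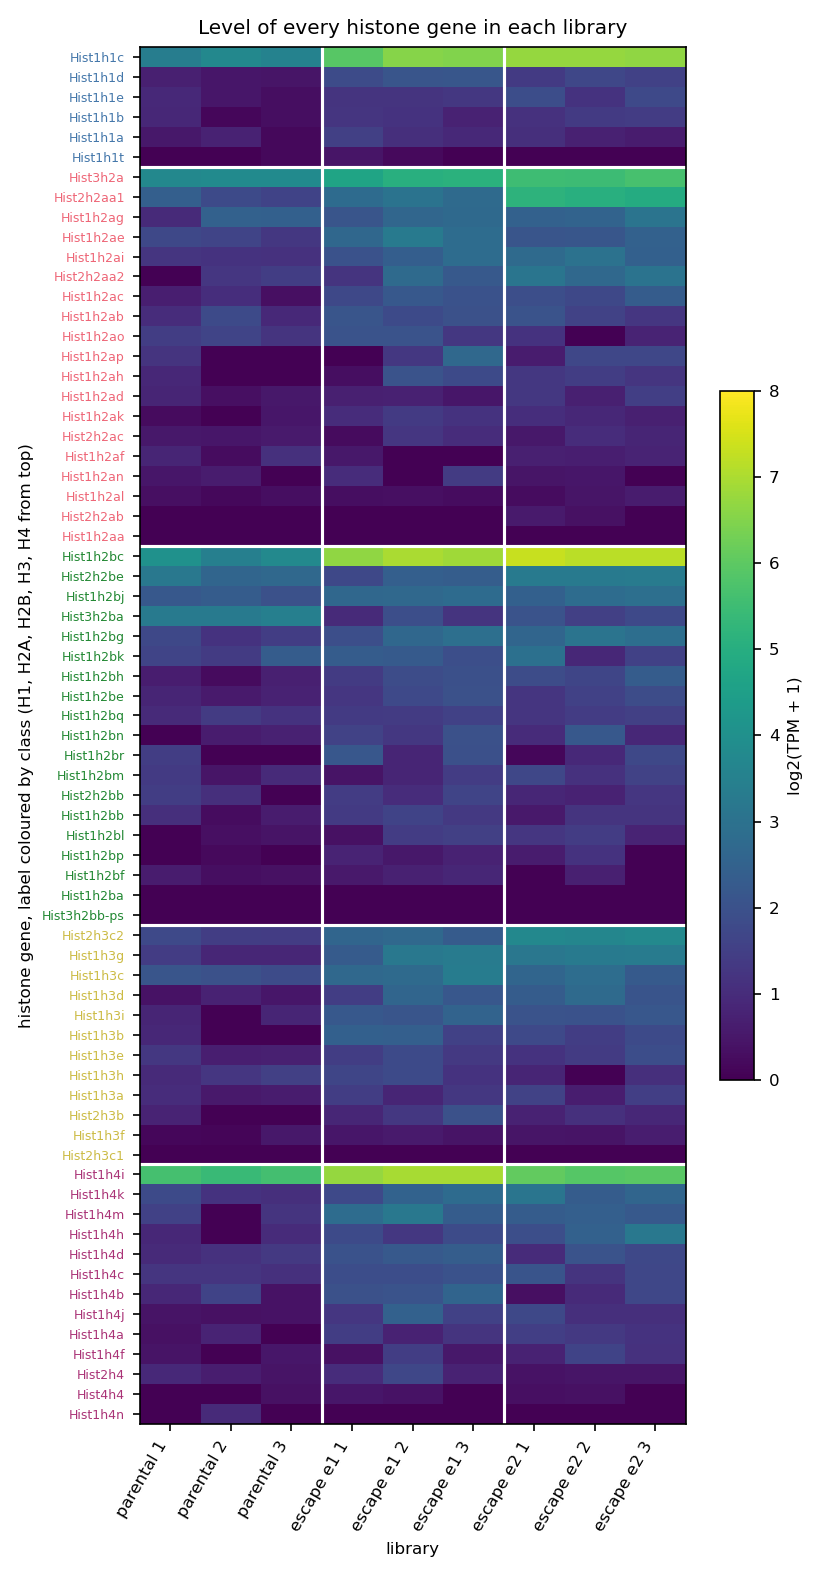
Level of each of the 69 histone genes as log2(TPM + 1) (colour) in each of the 9 libraries (columns), ordered within class by mean TPM. Hist1h2bc, Hist1h4i, Hist1h1c and Hist3h2a are the brightest rows in every library, Hist2h2aa1 is bright in e2, and most other rows are darker in the parental columns than in the escape columns.

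Linker histones of the H1 class bind where DNA enters and leaves the nucleosome. In these cells 1 of the 6 members, Hist1h1c (encoding H1.2), carried nearly all of the class. It measured 9.41, 12.3 and 10.7 TPM in the parental libraries, 59.7, 92.0 and 88.6 in e1 and 106, 105 and 101 in e2. Every escape library lay above every parental one, and every e2 library above every e1 library. The log2 fold change on the log2(TPM + 1) scale, used for all single genes here, was 2.76 ± 0.15 in e1 (SE, limma adjusted p = 1.969e-07) and 3.16 ± 0.15 in e2 (limma adjusted p = 6.468e-08).

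Hist1h1d and Hist1h1e, the next H1 genes, were far lower. Hist1h1d stood at 0.613, 0.388 and 0.361 TPM in parental libraries, 2.56, 3.29 and 3.38 in e1 and 1.58, 2.23 and 1.92 in e2, with no overlap between any of the 3 groups. Its log2 fold changes were 1.49 ± 0.12 in e1 and 0.999 ± 0.12 in e2 (limma adjusted p = 2.836e-06 and 4.561e-05). Hist1h1e, whose model overlaps that of Hist1h2be on the same strand, was at 0.9003, 0.390 and 0.238 TPM in parental libraries, 1.32, 1.31 and 1.47 in e1 and 2.71, 1.23 and 2.41 in e2. The parental libraries were all below the escape libraries, with log2 fold changes of 0.67 ± 0.20 and 1.04 ± 0.20 (limma adjusted p = 0.01437 and 0.001232). Without parental library 3 the e1 value was 0.54 (limma adjusted p = 0.05778), and in the fit with no filter limma gave 0.06966. The germ-line member Hist1h1t was listed at 0 in 6 libraries and not tested.

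Among the 19 H2A genes the highest was Hist3h2a, of the Hist3 cluster at chr11:58954685-58956830. Its libraries read 12.4, 13.2 and 13.3 TPM in parental cells, 24.6, 31.8 and 33.6 in e1 and 44.3, 43.7 and 50.3 in e2. The 3 groups did not overlap and stood in the order parental, e1, e2. The log2 fold change was 1.14 ± 0.11 in e1 and 1.75 ± 0.11 in e2 (limma adjusted p = 9.687e-06 and 3.955e-07). Trim17, which overlaps it on the same strand, was at most 0.144 TPM in any library.

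Hist2h2aa1, of the Hist2 cluster at chr3:96245497-96246082, differed between the escape lines by more than any other tested member. It was at 4.36, 2.45 and 2.05 TPM in parental libraries, 6.00, 7.34 and 5.74 in e1 and 34.7, 31.9 and 29.6 in e2. The e1 libraries lay just above the parental ones, and the e2 libraries far above both. The log2 fold change was 0.93 ± 0.19 in e1 and 3.10 ± 0.19 in e2 (limma adjusted p = 0.001444 and 3.051e-07). Its neighbour Hist2h2aa2 has an identical coding sequence, so reads of the pair may be split between them in ways these files do not show. Hist2h2aa2 was at 0, 1.42 and 1.75 TPM in parental libraries, 1.29, 5.79 and 3.67 in e1 and 7.67, 5.47 and 7.21 in e2. The e1 and parental libraries overlapped, and its log2 fold change was 1.15 ± 0.47 in e1 (limma adjusted p = 0.05783) and 2.04 ± 0.47 in e2 (limma adjusted p = 0.004511). The e1 value passed without e1 library 1 (1.58, limma adjusted p = 0.02009) or parental library 3 (1.42, limma adjusted p = 0.04068). Summed, the pair stood at 3.80 to 4.36 TPM in parental libraries, 7.29 to 13.1 in e1 and 36.8 to 42.4 in e2. The summed log2 fold changes were 1.09 ± 0.16 and 2.99 ± 0.16 (limma adjusted p = 0.0002196 and 1.597e-07).

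Hist1h2ag, the third H2A gene by level, was at 0.957, 4.62 and 4.50 TPM in parental libraries, 3.33, 5.27 and 5.69 in e1 and 4.54, 4.82 and 7.498 in e2. Parental library 1 was low and the groups overlapped, and neither log2 fold change passed (0.53 ± 0.40 and 0.73 ± 0.40, limma adjusted p = 0.2686 and 0.1333). Hist1h2ao was the other member called lower in e2. Its values were 1.77, 2.09 and 1.28 TPM in parental libraries, 3.14, 3.12 and 1.48 in e1 and 1.24, 0 and 0.725 in e2. The e2 libraries were below the others, with a log2 fold change of -0.78 ± 0.30 (limma adjusted p = 0.038). That call was lost with no filter (limma adjusted p = 0.1337) and without parental library 1 or 2, e1 library 1 or e2 library 2 or 3 (limma adjusted p from 0.05867 to 0.1329). Summed with Hist1h2ap, which has an identical coding sequence, the log2 fold change was 0.10 ± 0.27 (limma adjusted p = 0.7456), and in the sum e1 passed at 0.90 ± 0.27 (limma adjusted p = 0.01333). The remaining H2A members called higher in both lines were Hist1h2ac, Hist1h2ae, Hist1h2ai and Hist1h2ak, with parental means of 0.194 to 1.96 TPM and log2 fold changes of 0.94 to 1.37 in e1 and 0.64 to 1.57 in e2.

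In the H2B class a single gene stood above all others. Hist1h2bc, at chr13:23684199-23692908, was at 15.4, 10.1 and 12.7 TPM in parental libraries, 102, 127 and 116 in e1 and 158, 142 and 144 in e2. The 3 groups did not overlap. Its log2 fold changes were 3.09 ± 0.13 in e1 and 3.46 ± 0.13 in e2 (limma adjusted p = 3.511e-08 and 1.407e-08). On the log2(TPM + 1) scale they were the largest of the tested members in both comparisons. That scale holds down the changes of members near 0 TPM, such as Hist1h3b (means of 0.291 in parental cells and 3.62 in e1). The GENCODE model of Hist1h2bc has 2 exons and 742 bases after the stop codon. Its coding sequence is 99.47% identical to that of Hist1h2br, which was at most 2.38 TPM in group mean.

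The neighbour that faces Hist1h2bc, Hist1h2ac, starts 250 bases away on the other strand. Its group means were 0.649, 2.97 and 3.04 TPM in parental, e1 and e2, also called higher in both lines (1.29 and 1.30 on the log2 scale). H2A and H2B genes often lie in such pairs, and 13 pairs that face away from each other within 500 bases were found among the members. In 4 of them, with Hist1h2ac, Hist1h2ae, Hist1h2ak and Hist1h2ai, both genes were called higher in both lines. Of the 53 tested members, 31 were called so, and pairs with an untested gene could not count. All genes tested were called higher for 35.7% in e1 and 40.8% in e2. Their share called higher in both lines is not given here, so the 4 pairs are a description. Hist1h2ac, Hist1h2ak and its partner Hist1h2bn passed the filter only with the escape libraries (parental means 0.649, 0.194 and 0.395 TPM). So did Hist1h2bl, the partner of Hist1h2ai (0.205 TPM).

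H2B members were called in both directions in each escape line. Hist3h2ba, at chr11:58948920-58949533 in the same cluster as Hist3h2a, was at 8.54, 8.60 and 9.89 TPM in parental libraries, 0.933, 2.80 and 1.30 in e1 and 3.12, 1.84 and 2.37 in e2. Every escape library was below every parental one. It fell by 1.96 ± 0.23 in e1 and by 1.55 ± 0.23 in e2 on the log2 scale (limma adjusted p = 4.108e-05 and 0.0001961). The fit with no filter called no other member lower in either line.

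Hist2h2be, at chr3:96221119-96223738, differed in direction between the lines. It was at 8.17, 5.11 and 5.57 TPM in parental libraries, 2.31, 4.41 and 4.10 in e1 and 8.82, 8.63 and 8.97 in e2. The e1 libraries were all below and the e2 libraries all above the parental ones. The log2 fold change was -0.67 ± 0.20 in e1 (limma adjusted p = 0.01279) and 0.45 ± 0.20 in e2 (limma adjusted p = 0.06372, which did not pass). The e1 call was lost without parental library 1 (limma adjusted p = 0.0535) and with no filter (limma adjusted p = 0.06424), and the e2 value passed without parental library 1 (limma adjusted p = 0.01979) or without e1 library 1 (limma adjusted p = 0.01016). Hist1h2bj, the third by level, was at 3.58, 3.97 and 2.92 TPM in parental libraries, 5.38, 5.45 and 5.98 in e1 and 4.45, 6.12 and 6.52 in e2. Its escape libraries all lay above the parental ones, by 0.56 ± 0.13 and 0.57 ± 0.13 (limma adjusted p = 0.004016 and 0.003497).

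**Figure D4:**
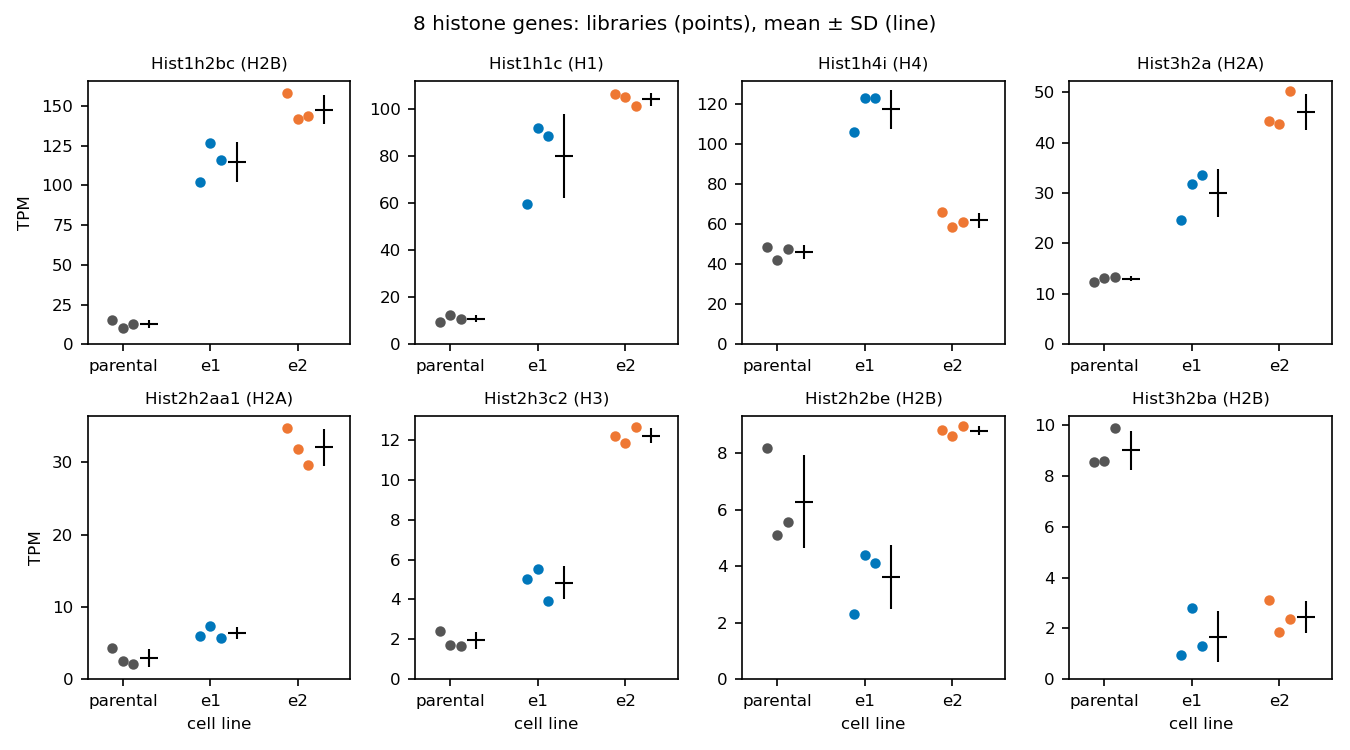
TPM (linear axes from 0) of 8 histone genes in each library, with points for libraries and a line for mean ± SD (n = 3). Hist1h2bc, Hist1h1c, Hist3h2a, Hist2h2aa1 and Hist2h3c2 are lowest in parental cells and highest in e2, Hist1h4i is highest in e1, Hist2h2be is lowest in e1 and Hist3h2ba is highest in parental cells.

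In the H3 class no member exceeded 12.6 TPM in any library. Hist2h3c2, next to Hist2h2aa2 in the Hist2 cluster at chr3:96238108-96239127, was at 2.44, 1.72 and 1.67 TPM in parental libraries, 5.05, 5.54 and 3.91 in e1 and 12.2, 11.8 and 12.6 in e2. The groups did not overlap and stood in the order parental, e1, e2, with log2 fold changes of 0.99 ± 0.13 and 2.18 ± 0.13 (limma adjusted p = 8.274e-05 and 2.636e-07). Its identical twin Hist2h3c1 was listed at 0 in every library, and how reads shared by the pair were assigned is not known.

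Hist1h3g was at 1.69, 0.833 and 0.830 TPM in parental libraries, 3.91, 8.23 and 9.05 in e1 and 7.94, 8.87 and 8.94 in e2. The escape libraries were all higher, with e1 library 1 the lowest of them, and the log2 fold changes were 1.89 ± 0.26 and 2.20 ± 0.26 (limma adjusted p = 0.0001146 and 3.612e-05). Hist1h3c was at 3.31, 2.95 and 2.58 TPM in parental libraries, 5.53, 5.84 and 9.26 in e1 and 5.11, 6.28 and 3.84 in e2. Its escape libraries also lay above the parental ones, by 0.97 ± 0.19 and 0.61 ± 0.19 (limma adjusted p = 0.001425 and 0.0176), and the e2 call was lost without parental library 3 (limma adjusted p = 0.06082), without e2 library 2 (limma adjusted p = 0.07163) and with no filter (limma adjusted p = 0.07633). Hist1h3b, Hist1h3d and Hist1h3i had parental means of 0.291 to 0.515 TPM and rose by 1.52 to 1.84 in e1 and 1.37 to 1.84 in e2.

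In the H4 class Hist1h4i, at chr13:22040636-22041362, carried most of the sum and was the highest member of all in parental cells. It was at 48.7, 42.2 and 47.8 TPM in parental libraries, 106, 123 and 123 in e1 and 65.9, 58.9 and 61.0 in e2. Both escape lines lay above the parental cells, and e1 lay above e2 with no overlap. The log2 fold change was 1.33 ± 0.08 in e1 and 0.42 ± 0.08 in e2 (limma adjusted p = 3.943e-07 and 0.001181).

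The other H4 genes reached group means of at most 6.10 TPM. Hist1h4k was at 2.48, 1.24 and 1.13 TPM in parental libraries, 2.40, 4.69 and 5.97 in e1 and 7.56, 4.07 and 5.06 in e2. Library 1 of e1 fell within the parental range and the e2 libraries did not, and log2 fold changes were 1.01 ± 0.30 and 1.33 ± 0.30 (limma adjusted p = 0.01285 and 0.002734), the first not called with no filter (limma adjusted p = 0.06599). Hist1h4m was at 1.92, 0 and 1.29 TPM in parental libraries, 6.12, 8.20 and 3.99 in e1 and 4.02, 4.33 and 3.73 in e2. Its escape libraries were all higher (1.87 ± 0.37 and 1.41 ± 0.37, limma adjusted p = 0.001554 and 0.00705), and summed with its twin Hist1h4n the values were 1.55 ± 0.22 and 1.10 ± 0.22 (limma adjusted p = 0.0001337 and 0.00124). Hist1h4h was at 0.834, 0 and 0.996 TPM in parental libraries, 2.49, 1.46 and 2.58 in e1 and 2.79, 4.600 and 8.16 in e2. The groups did not overlap, and the log2 fold change was 1.02 ± 0.35 in e1 (limma adjusted p = 0.02693) and 1.91 ± 0.35 in e2 (limma adjusted p = 0.0009444). Its e1 call was lost without parental library 2 (limma adjusted p = 0.0917), without e1 library 1 (limma adjusted p = 0.1101) and without e1 library 3 (limma adjusted p = 0.08565). It was also lost with no filter (limma adjusted p = 0.1013), in rlog values (limma adjusted p = 0.07834) and at a pseudocount of 0.1 (limma adjusted p = 0.05012).

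Read by cluster, the e2 sum exceeded the e1 sum for Hist2 and Hist3, while for Hist1 the order depended on the scaling. The Hist1 sum was 115 ± 8.75 TPM in parental cells, 439 ± 57.1 in e1 and 430.0 ± 11.1 in e2. The ratio of e2 to e1 was 0.979 as deposited, 0.915 with median-ratio scaling and 1.01 with the 10 highest genes removed. The Hist2 sum was 14.45 ± 3.72, 23.9 ± 5.44 and 63.1 ± 2.65, so that e2 exceeded e1 by 2.64 times. For Hist3 it was 22.0 ± 1.14, 31.6 ± 5.33 and 48.5 ± 3.68. Hist4h4, the single Hist4 gene, stood at 0 to 0.406 TPM and was not tested. The other Hist2 members were low. Hist2h2ac and Hist2h2bb reached at most 1.38 and 2.11 TPM, and neither passed in any comparison, except that Hist2h2ac passed in e1 without e1 library 1 (0.61, limma adjusted p = 0.003305). Hist2h3b was at 0.736, 0 and 0 TPM in parental libraries and passed in e1 (1.11 ± 0.29, limma adjusted p = 0.007227) but not in e2 (0.66 ± 0.29, limma adjusted p = 0.06768), a difference between the lines that did not pass either (limma adjusted p = 0.1953). The e2 value passed without parental library 1 or e1 library 1 or 3 (limma adjusted p from 0.02138 to 0.04257). Hist2h2ab was listed at 0 in every parental and e1 library and reached 0.487 TPM in e2, and Hist2h4 reached 2.29 TPM in 1 e1 library, and neither was tested.

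Named differences between the escape lines came from few genes. Those higher in e2 than in e1 by the largest log2 differences were Hist2h2aa1 (2.17 ± 0.19), Hist2h3c2 (1.19 ± 0.13), Hist2h2be (1.12 ± 0.20) and Hist1h4h (0.89 ± 0.35), with limma adjusted p of 5.523e-06, 2.536e-05, 0.0006744 and 0.04788. Those lower in e2 were Hist1h4b (-1.20 ± 0.39), Hist1h2ao (-1.15 ± 0.30), Hist1h3h (-0.91 ± 0.28) and Hist1h4i (-0.91 ± 0.08), with limma adjusted p of 0.02147, 0.006343, 0.01487 and 6.943e-06. The e2 libraries of Hist1h3h read 0.785, 0 and 1.10 TPM and those of e1 2.21, 2.46 and 1.25, without overlap. Hist1h4b read 0.262, 0.924 and 2.25 TPM in e2 and 2.92, 3.16 and 4.92 in e1, also without overlap. With no filter the differences of Hist1h4h, Hist1h4b and Hist1h3h were not called (limma adjusted p = 0.1524, 0.07985 and 0.07334). The difference of Hist1h4h was also not called without parental library 1 or 3, any 1 e1 library, or e2 library 2 or 3 (limma adjusted p from 0.051 to 0.1573).

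Gene models with a long 3′ end were compared with short ones, since a polyadenylated form needs sequence beyond the stem-loop. In 22 members a GENCODE model ran 300 bases or more past the stop codon. Of the 18 that were tested, 15 were called higher and 1 lower in e1, and 14 higher and none lower in e2. In the other 45 members with a coding model, 35 were tested, and 22 were called higher and 1 lower in e1, and 19 higher and 2 lower in e2. Over all genes tested the shares were 35.7% higher and 34.9% lower in e1, and 40.8% and 32.7% in e2, and in both groups of members the filter let genes in through the escape libraries. The summed TPM of the long group was 101 in parental cells, 383 in e1 and 409 in e2 (group means). Most of it came from Hist1h2bc, Hist1h4i, Hist1h1c and Hist3h2a, and the other 18 long members summed to 17.9, 41.0 and 48.8 TPM. That of the short group was 50.4, 112 and 133. The difference between these groups was not tested. The letters AATAAA, the canonical polyadenylation signal, stood in the last 40 bases of a model in 10 long and 5 short members, and in 25.8% of all annotated transcripts. Hist1h1c, Hist3h2a, Hist3h2ba and Hist2h2be were among these members, while Hist1h2bc and Hist1h4i were not. Some short models, such as those of Hist1h2ai, Hist1h3i and Hist1h4k, stop at the stop codon, so their 3′ ends are not annotated.

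RNAs without a poly(A) tail, which a poly(A)-selected library would largely miss, were read from a separate list of 37 small nuclear, nucleolar and other stable RNAs. Of these 20 were in the table and 13 were tested. None was called in e1 by limma, and 2 were called higher and 1 lower in e2. Among all genes tested, 35.7% were called higher and 34.9% lower in e1, and 40.8% and 32.7% in e2. Their summed TPM was 31.6 to 86.8 in parental libraries, 57.4 to 68.5 in e1 and 61.5 to 81.6 in e2, so the groups overlapped. Rmrp, the RNA of a ribonuclease, read 28.3 TPM in parental library 1 but 1.59 and 3.28 in the other parental libraries. Rpph1, the RNA of ribonuclease P, read 17.4 there and 4.55 and 3.75 in the others. The part of such differences between libraries in the histone values was not tested.

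Promoters of the neighbours Hist3h2a and Hist3h2ba, which moved in opposite directions, and of Hist1h1c and Hist2h2aa1 are shown next to each other. RefSeq promoter entries (GRCm38.p6) were found for 61 of 69 members. The 250 bases before the start were searched on both strands for 4 motifs, each by itself and without regard to overlap. These were the CCAAT box, the TATA box spelled as TATAAA, the octamer of H2A and H2B genes spelled as ATTTGCAT, and the motif of H1 genes spelled as AAACACA. The CCAAT box was present in 50 of 61 members (82.0%) and 33.8% of 32851 promoters in the RefSeq table. All 5 H1, 18 H2A and 16 H2B promoters held it, against 3 of 12 for H4. The TATAAA letters were present in 45.9% of members and 12.4% of all promoters. The octamer was present in 7 of 18 H2A and 6 of 16 H2B promoters, in none of the other classes, and in 1.60% of all promoters. H2A and H2B genes of the pairs described above share bases of these windows, so a single site can count for both genes. AAACACA was present in 4 of 5 H1 promoters and 6.25% of all. Each promoter below is given 5′ to 3′ on the gene's strand with these letters in capitals on either strand.
Hist1h1c: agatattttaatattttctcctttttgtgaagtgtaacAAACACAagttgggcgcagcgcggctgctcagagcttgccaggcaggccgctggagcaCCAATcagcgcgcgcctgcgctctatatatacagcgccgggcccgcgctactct
Hist2h2aa1: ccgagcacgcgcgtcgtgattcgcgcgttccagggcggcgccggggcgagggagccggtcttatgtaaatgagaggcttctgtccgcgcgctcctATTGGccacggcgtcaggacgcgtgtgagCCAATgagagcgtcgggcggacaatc
Hist3h2a: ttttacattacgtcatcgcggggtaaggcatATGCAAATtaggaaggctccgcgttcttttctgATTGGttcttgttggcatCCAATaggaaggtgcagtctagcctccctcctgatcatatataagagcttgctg
Hist3h2ba: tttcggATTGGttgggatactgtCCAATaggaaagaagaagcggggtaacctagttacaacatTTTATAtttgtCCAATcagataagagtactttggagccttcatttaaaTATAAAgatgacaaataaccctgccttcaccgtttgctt
They lie on the plus strand at chr13:23738657-23738806, chr3:96245347-96245496, chr11:58954535-58954670 and chr11:58948761-58948910 in that order. The Hist3h2a promoter held the octamer on the minus strand and CCAAT on each strand. That of Hist3h2ba held CCAAT on both strands and TATAAA but no octamer. These matches describe letters in the window and say nothing of binding in these cells.

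The genes that make, cut and use histone mRNA were called in both directions, as were genes in general. Shares over all genes tested were 35.7% higher and 34.9% lower in e1, and 40.8% and 32.7% in e2. Of 23 tested genes of histone 3′ end processing, 9 were called higher and 2 lower in e1, and 6 higher and 11 lower in e2. Slbp, the stem-loop binding protein, read 100.2, 105 and 100.4 TPM in parental libraries, 78.3, 84.7 and 82.0 in e1 and 130.0, 122 and 124.5 in e2. It was lowest in e1 and highest in e2 without overlap, with log2 fold changes of -0.32 ± 0.05 and 0.30 ± 0.05 (limma adjusted p = 0.0003917 and 0.0005724). Lsm11 and Lsm10, which belong to the U7 particle, were at 4.53 and 19.5 TPM in parental cells. Lsm11 rose by 0.25 in e1 (limma adjusted p = 0.01116) and Lsm10 by 0.40 in e2 (limma adjusted p = 0.005453). Casp8ap2 (FLASH), which takes part in both transcription and cutting, rose from a mean of 11.9 TPM to 19.7 in e1 and 18.3 in e2 (0.68 and 0.58, limma adjusted p = 3.984e-05 and 0.0001102).

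Of 21 tested genes of histone gene transcription, 9 were called higher and 4 lower in e1, and 8 higher and 10 lower in e2. Beside this stand 35.7% higher and 34.9% lower in e1, and 40.8% and 32.7% in e2, over all genes tested. Npat, the coactivator that cyclin E and CDK2 switch on at histone genes, had means of 12.1, 13.3 and 12.2 TPM and passed in neither line (limma adjusted p = 0.152 and 0.8762). Hinfp, a factor of H4 promoters, rose from 8.30 to 11.6 TPM in e1 and 9.81 in e2 (0.44 and 0.22, limma adjusted p = 0.0001373 and 0.009847). The cyclin E genes moved in opposite directions. Ccne1 fell from 42.8 TPM to 24.2 in e1 and 18.01 in e2, by 0.81 and 1.21 on the log2 scale (limma adjusted p = 1.479e-05 and 7.532e-07), while Ccne2 rose from 26.3 to 56.5 and 53.02 TPM (1.07 and 0.99, limma adjusted p = 1.913e-06 and 3.216e-06). E2f1, an S phase transcription factor, rose from 29.9 TPM to 50.8 and 62.7 (0.75 and 1.05, limma adjusted p = 1.32e-06 and 1.073e-07).

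Genes of histone mRNA decay and export, 23 tested, were called higher for 10 and lower for 7 in e1, and higher for 4 and lower for 13 in e2. Eri1, the exonuclease that trims the stem-loop, rose from 37.0 TPM to 49.2 in e1 and fell to 28.8 in e2 (0.41 and -0.35, limma adjusted p = 0.0008244 and 0.002065). Histone chaperones, which hand histones to DNA, were called higher for 19 and lower for 5 of 31 in e1, and for 10 and 12 in e2. For both lists the shares over all genes tested were 35.7% and 34.9% in e1, and 40.8% and 32.7% in e2. Chaf1b, a subunit of the chaperone CAF-1, fell by 0.34 in e1 and by 0.81 in e2 (limma adjusted p = 0.0002758 and 5.345e-07).

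Among S phase genes 18 of 34 tested were called higher and 9 lower in e1, and 14 and 14 in e2, with median log2 fold changes of 0.19 and -0.03. Pcna, the replication clamp, had means of 579, 612 and 713 TPM, and passed in e2 (0.30, limma adjusted p = 0.0002177) but not in e1 (0.08, limma adjusted p = 0.1393). Rrm2, a subunit of ribonucleotide reductase, had means of 374, 338 and 262 TPM and fell by 0.51 in e2 (limma adjusted p = 0.000417). Of 20 mitosis genes 17 were called higher and none lower in e1, and 11 higher and none lower in e2. All genes tested were called higher for 35.7% and lower for 34.9% in e1, and for 40.8% and 32.7% in e2. The part of cell cycle phase in the histone values was not tested.

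Most replacement histone variants are expressed through the whole cycle from ordinary polyadenylated mRNAs, though this does not hold in full for H2afx. Of 10 tested, 6 were called higher and 3 lower in e1, and 7 higher and 1 lower in e2. Over all genes tested these shares were 35.7% and 34.9% in e1, and 40.8% and 32.7% in e2. H1fx, a linker variant, had the largest difference and read 7.59, 6.15 and 5.59 TPM in parental libraries, 22.8, 35.2 and 33.8 in e1 and 39.4, 36.2 and 37.5 in e2. Every e1 and e2 library was above every parental one, by 2.07 ± 0.16 and 2.39 ± 0.16 (limma adjusted p = 1.686e-06 and 5.574e-07). H1f0, the linker histone of resting cells, was higher in e2 and lower in e1, at means of 207, 133 and 316 TPM (-0.65 and 0.61, limma adjusted p = 7.095e-05 and 0.0001041). H2afx, whose phosphorylated form marks DNA breaks, rose from 95.8 TPM to 199 and 185 (1.03 and 0.94, limma adjusted p = 2.483e-05 and 4.462e-05). H2afj fell from 77.6 TPM to 39.1 and 59.7, by 0.98 in e1 and by 0.37 in e2 (limma adjusted p = 8.38e-06 and 0.00459). The H3.3 genes H3f3a and H3f3b had parental means of 462 and 553 TPM and rose by 0.33 and 0.18 in e1 and 0.56 and 0.44 in e2 (limma adjusted p at most 0.01485).

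The split of reads among members limits single-gene values. Coding sequences were compared for 59 members, and 44 were at least 97% identical to another member, 10 of them fully. With the 5 identical pairs summed, 39 of 50 tested features were called higher and 2 lower in e1, and 32 higher and 1 lower in e2 (limma). The shares over all features tested were 35.7% and 34.9% in e1, and 40.8% and 32.7% in e2. The strand setting of the quantification is not given in the sources used here, and 22 members have a gene annotated on the opposite strand. Of the 28 other genes that overlap a member, Trim17 is the 1 with a row in the table.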

How the data were processed

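The authors deposited TPM per gene for 9 libraries and a table of rlog values, which are on a log2 scale. Per the submitters' processing notes, the authors used Salmon, DESeq2 and the mm10 build, whose versions and settings, like the annotation, library selection and strand setting, were not given in the sources used here. No counting intervals were computed, as TPM holds no counts.

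Groups and library numbers came from the sample titles. Genes reaching 1 TPM in 3 or more libraries (12769 of 24493) were tested with limma 3.58.1 (R 4.3.3) on log2(TPM + 1), with 3 group means and trend and robust empirical Bayes, two-sided, Benjamini-Hochberg adjusted over all genes tested, and called under 0.05. The steps were tested on simulated data, and nothing is drawn from that here about members at low TPM. The members and gene lists were chosen with earlier results of these data known. The rule for named genes took the 3 highest members of each class, up to 4 called members per direction and comparison, all Hist2, Hist3 and Hist4 members, germ-line members, and from each list up to 3 called genes per direction plus a set list. The text names fewer list genes.

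Each result was recomputed leaving out every library in turn, with the library number as a block, with 2 groups in the fit, with plain empirical Bayes, on the rlog values, after median-ratio scaling, without the 10 highest genes, without a filter or with one at 5 TPM, and with 0.1 as pseudocount. Class and cluster sums were recomputed with both scalings, and class sums without the highest member. Summing identical members was added after the data were seen.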

Additional observations from a re-analysis of the deposited data

Results flagged for a closer look

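Histone genes whose levels differed between the escape lines were singled out because the difference itself, e2 minus e1 on the log2(TPM + 1) scale, passed limma's test. They numbered 14 of 53 tested, 7 higher and 7 lower in e2. Of all genes tested, 40.6% were called higher and 29.7% lower, so at this filter members were called less often than genes in general. With a filter of 5 TPM, 6 of 17 members were higher (35.3%) and 2 lower (11.8%), against 40.2% and 32.7% of all genes. The part of low levels in the smaller share of calls was not tested. Higher in e2 were Hist2h2aa1 (2.17), Hist2h3c2 (1.19), Hist2h2be (1.12), Hist1h4h (0.89), Hist3h2a (0.61), Hist1h1c (0.40) and Hist1h2bc (0.36). Lower in e2 were Hist1h4b (-1.20), Hist1h2ao (-1.15), Hist1h3h (-0.91), Hist1h4i (-0.91), Hist1h2ae (-0.68), Hist1h4d (-0.62) and Hist1h1d (-0.49).

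The differences of Hist2h2aa1, Hist2h3c2, Hist2h2be, Hist3h2a, Hist1h4i, Hist1h2ae, Hist1h2ao and Hist1h1d passed under each alternative in which the gene was tested. That of Hist1h1c (limma adjusted p = 0.03957) was lost without e1 library 1 (limma adjusted p = 0.05929), without parental library 3 (0.05593) and without each e2 library in turn (0.07163 to 0.09602). The Hist1h1c call was also lost with median-ratio scaling (limma adjusted p = 0.0665), in rlog values (0.06641) and with only the compared groups fitted (0.06625). That of Hist1h2bc (limma adjusted p = 0.03435) was lost without e1 library 1 (0.107), without e1 library 3 (0.06231) and without each e2 library in turn (0.0575 to 0.1087). The Hist1h2bc call was also lost with median-ratio scaling (limma adjusted p = 0.1152), in rlog values (0.105) and with the replicate block (0.05456). Hist1h4h was not called without 7 of the 9 libraries in turn (limma adjusted p from 0.051 to 0.1573), nor Hist1h4d (0.05009 to 0.1077). Hist1h4b was lost without e1 library 1 or 3 and e2 library 1 or 2 (limma adjusted p from 0.05489 to 0.07668), and Hist1h3h without e1 library 1 or 2 (0.06215 and 0.05147). With no filter Hist1h1c, Hist1h2bc, Hist1h4h, Hist1h4d, Hist1h4b and Hist1h3h were all not called (limma adjusted p from 0.07334 to 0.1524). At a pseudocount of 0.1 Hist1h4h, Hist1h4d and Hist1h3h were not called (limma adjusted p = 0.2833, 0.055 and 0.0546).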

How the results depend on the processing

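Members called higher in e1 and e2 against parental cells numbered 32 to 38 and 29 to 34 when each library was left out in turn. Members called lower numbered 1 to 2 in both. Over all genes tested the shares were 32.7 to 39.3% higher and 31.9 to 36.6% lower in e1. In e2 they were 37.3 to 44.4% and 29.6 to 35.8%. Between the escape lines 4 to 8 members were called higher and 5 to 7 lower, against 36.8 to 41.6% and 26.5 to 31.7% of all genes. The median log2 fold changes of tested members were then 0.82 to 1.09 in e1, 0.73 to 0.92 in e2 and -0.2045 to 0.0472 between the lines. A filter of 5 TPM, which leaves 17 members, gave 13 higher and 2 lower in e1 and 14 higher and 1 lower in e2. Between the lines it gave 6 higher and 2 lower. The shares of all genes were 37.4% and 34.7% in e1, 40.6% and 33.9% in e2, and 40.2% and 32.7% between the lines. Medians were 1.40 in e2 and 0.34 between the lines. With no filter 25 members were higher and 1 lower in e1, and 26 higher and 1 lower in e2. Between the lines 4 were higher and 4 lower. The shares of all genes were 17.0% and 19.1% in e1, 22.0% and 17.5% in e2, and 21.8% and 13.8% between the lines. Medians were 0.73 in e1 and 0.58 in e2. A pseudocount of 0.1 gave medians of 1.55 and 1.82 and 1 member lower in e2, against 32.5% of all genes. In rlog values 34 members were higher in e1 and 27 in e2, against 36.3% of all genes in each line. Medians there were 0.35 and 0.25. Between the lines 4 were higher, against 36.5% of all genes, and median-ratio scaling also gave 4, against 36.2%. With only the compared groups fitted, and with identical members summed, 1 was lower in e2, against 35.2% and 32.7% of all genes. In that sum Hist1h2ao was at 0.10 in e2 in place of -0.78, since the sum adds the values of Hist1h2ap. Class ratios without the highest member were 3.85 and 3.43 for H1, 1.25 and 1.41 for H2B and 3.31 and 2.88 for H4 (e1 and e2), and median-ratio scaling put the H2A ratio in e2 at 3.49.

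With the library number as a replicate block, 39 members were higher and 2 lower in e1, 34 and 2 in e2, and 6 and 8 between the lines. The shares of all genes were 34.5% and 34.0% in e1, 39.8% and 32.0% in e2, and 39.8% and 28.6% between the lines. Deviations from group means correlated at -0.13 to 0.0499 between same-numbered libraries, and not every library correlated best with its own number. No pairing by number was thus seen. The labels do not say whether same-numbered libraries were handled together, and weak correlations cannot exclude it. Of single values of 26 tested named members in 3 comparisons, 1340 kept their side of the threshold, 79 lost a call, 23 gained one and 1 reversed, and 50 of the lost calls lay between the escape lines. Unless stated above, the cause was not tested. Depth is unknown in TPM, so how far counting error limits members near 0 cannot be given.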
